A study of Homo sapiens with 10 samples.

Results

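The genes described here are 39 genes of glucose breakdown, the pentose phosphate pathway and the response to low oxygen in the human prostate cancer line PC3. They were chosen by name, as the rows of the 4 deposited gene tables whose gene column holds the symbol, and each of the 39 was found on a single row among 23170 genes. The question was how these genes differ between epithelial and mesenchymal states of the same line. RNA-seq covered 10 samples in 4 groups, all grown in RPMI-1640 medium with fetal bovine serum. PC3-Epi (2 samples) is a luciferase-positive subpopulation of PC3 selected for a stable epithelial form. PC3-EMT14 (3 samples) is a mesenchymal line isolated after PC3-Epi had been co-cultured with macrophages derived from IL4-treated CD14+ monocytes. The third line, PC3-EMT14-OVOL1 (3 samples), was made from PC3-EMT14 with a lentivirus that expresses the zinc-finger transcription factor OVOL1. The fourth, PC3-EMT14-OVOL2 (2 samples), was made likewise with OVOL2. The methods of the study list the OVOL1 construct as purchased and the OVOL2 construct as made by cloning. No sample is labelled as PC3-EMT14 with an empty vector, so OVOL expression and transduction cannot be told apart here. Each group is 1 line, so a difference between groups is a difference between lines.

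Glycolysis splits glucose into pyruvate and yields ATP without oxygen, and lactate dehydrogenase turns pyruvate into lactate. The pentose phosphate pathway branches off at glucose 6-phosphate and makes NADPH and ribose. The hypoxia-inducible factors (HIF) are dimers of an alpha subunit, HIF-1α (HIF1A) or HIF-2α (EPAS1), with the beta subunit ARNT. Prolyl hydroxylases of the EGLN family mark the alpha subunits for destruction through VHL when oxygen is present, so HIF activity is set in large part at the level of protein. Many genes of glycolysis are textbook HIF targets, as are CA9, ADM, VEGFA and BNIP3.

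The tables give levels in FPKM, fragments scaled to transcript length and, in these tables, to the upper quartile of each library, so that levels of different genes can be compared, with 1 value per group that pools its samples. No SD or test could therefore be computed, and whether a difference is larger than the spread between samples was not tested. Ratios are log2 of the second group over the first within 1 table, with no pseudocount. A gene was counted as 2-fold higher or lower when its higher group had at least 1 FPKM. The 3 comparisons against PC3-EMT14 share that group, so their values are given side by side. The value of PC3-EMT14 was not the same in each table: relative to the PC3-Epi table its genes stood at a median factor of 0.979 in the OVOL1 table and 0.969 in the OVOL2 table. The PC3-EMT14 levels printed below are those of the PC3-Epi table. As a check of the labels, OVOL1 stood at 0.0243 FPKM in PC3-EMT14, 4.25 in PC3-Epi and 11.3 in PC3-EMT14-OVOL1. OVOL2 stood at 0.383 FPKM in PC3-EMT14, 9.91 in PC3-Epi and 831 in PC3-EMT14-OVOL2. Of 14 macrophage markers, 13 stayed below 1 FPKM in every value, at most 0.337, and CD68 was the exception with 54.1 FPKM in PC3-EMT14 and 13.2 in PC3-Epi. In bulk RNA, fewer cells of a type and less RNA per cell cannot be told apart.

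Few of the 39 genes were 2-fold apart. In PC3-Epi 3 genes were 2-fold or more higher than in PC3-EMT14 (CA9, EPAS1 and EGLN3), of 38 that reached 1 FPKM, while 7.37% of all genes of that level were. ENO2 was the 1 gene 2-fold or more lower, beside 8.34% of all genes. With OVOL1, CA9 and EPAS1 were 2-fold or more higher (2 of 38, with 2.43% of all genes) and none was 2-fold lower (1.54% of all genes). With OVOL2, CA9, EPAS1 and ADM were higher (3 of 38, with 4.42% of all genes) and none was lower (2.93% of all genes). Between the OVOL lines, CA9 was 2-fold or more lower with OVOL2 than with OVOL1 (1 of 38, with 1.17% of all genes), and none was 2-fold higher (1.90% of all genes). LOX, a lysyl oxidase that crosslinks collagen, is the gene that stayed under 1 FPKM, between 0.184 and 0.230 in all 4 lines. These counts are near what the shares of all genes would give for 38 genes, so the counts alone do not set these genes apart.

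The median log2 ratio of the 38 genes was -0.12 in PC3-Epi, -0.02 with OVOL1 and -0.18 with OVOL2. Over all genes the medians were -0.01, -0.00 and -0.04. The genes that lay lower than in PC3-EMT14 by any amount numbered 24 of 38 in PC3-Epi (50.9% of all genes), 21 with OVOL1 (50.3%) and 25 with OVOL2 (56.0%).

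**Figure D1:**
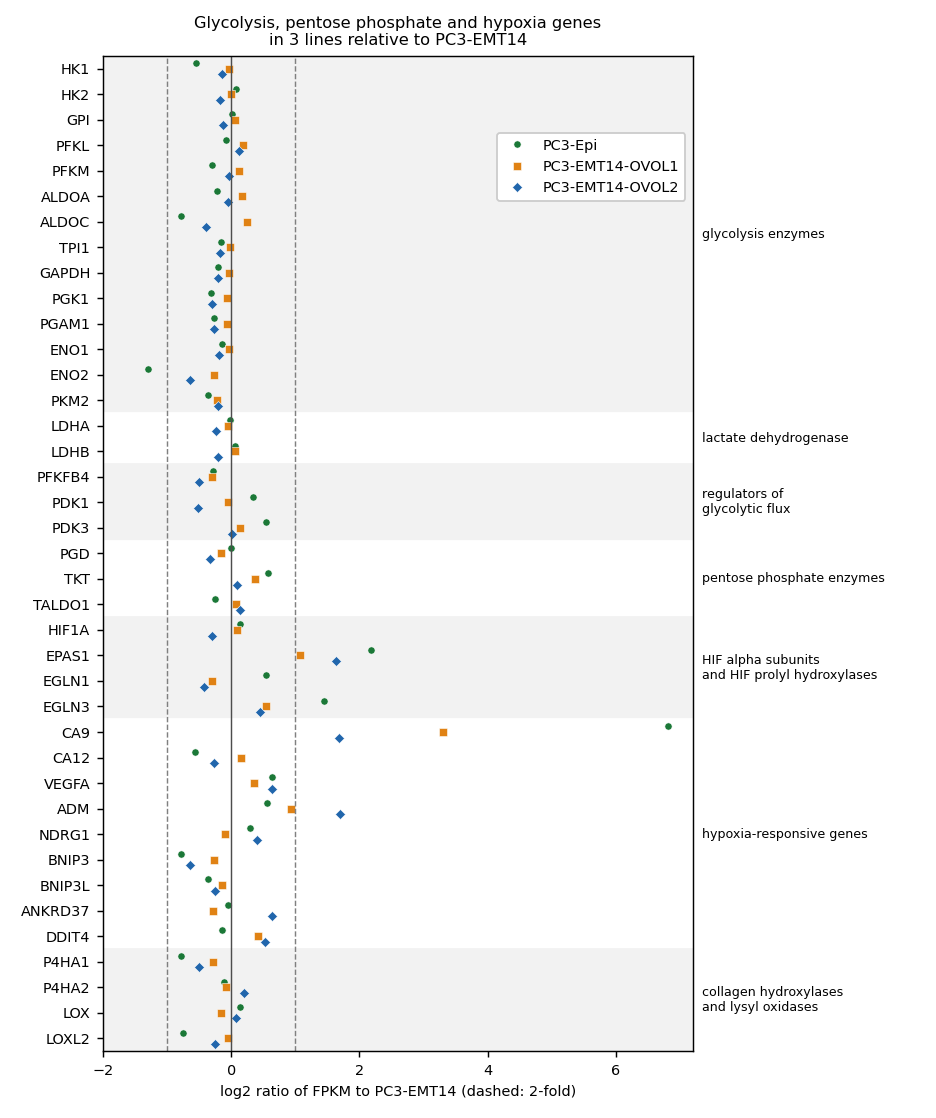
The log2 ratio of FPKM to PC3-EMT14 is plotted for each of the 39 genes, grouped by role, with 1 symbol each for PC3-Epi, the OVOL1 line and the OVOL2 line. CA9 lies farthest to the right in PC3-Epi at 6.81, EPAS1 lies beyond the 2-fold line in all 3 lines, and most glycolysis enzymes lie just left of 0 in PC3-Epi and with OVOL2.

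Of the HIF alpha subunits, the message for HIF-2α was higher than in PC3-EMT14 in all 3 other lines and that for HIF-1α differed by less than 2-fold in each. EPAS1 (chr2:46524541-46613842, hg19) was at 7.10 FPKM in PC3-EMT14, 32.1 in PC3-Epi, 14.6 with OVOL1 and 21.5 with OVOL2. The log2 ratios were 2.18, 1.07 and 1.64, or 4.53-fold, 2.10-fold and 3.12-fold. With 1 FPKM added to each value the ratio with OVOL1 was 0.97, which is under 2-fold. EPAS1 ranked 361st from the top of 12441 genes in PC3-Epi, 275th of 12197 with OVOL1 and 300th of 12307 with OVOL2. HIF1A (chr14:62162119-62214977, hg19) was at 176 FPKM in PC3-EMT14, 193 in PC3-Epi, 184 with OVOL1 and 139 with OVOL2, with log2 ratios of 0.14, 0.09 and -0.29. HIF1A was the more abundant of both alpha subunits in every line. Its excess over EPAS1 was 24.7-fold in PC3-EMT14, 12.6-fold with OVOL1, 6.47-fold with OVOL2 and 6.01-fold in PC3-Epi. EPAS1 thus made up 3.89% of the summed FPKM of the pair in PC3-EMT14 and 14.3% in PC3-Epi.

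The prolyl hydroxylases that act on HIF differed in pattern. EGLN3 (chr14:34393421-34420284, hg19) was low in every line, at 0.840 FPKM in PC3-EMT14, 2.28 in PC3-Epi, 1.20 with OVOL1 and 1.12 with OVOL2, with log2 ratios of 1.44, 0.55 and 0.46. With levels this near to 1 FPKM, the ratio in PC3-Epi was 0.84 when 1 FPKM was added to each value. EGLN1, the main oxygen sensor of the family, was at 7.27 FPKM in PC3-EMT14 and 10.7 in PC3-Epi. In the OVOL lines it lay lower than in PC3-EMT14, at 5.77 FPKM with OVOL1 and 5.27 with OVOL2. Its log2 ratios were 0.55, -0.30 and -0.42, so both OVOL lines stood on the other side of PC3-EMT14 from PC3-Epi.

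CA9 had the greatest ratio of the 39 genes in PC3-Epi and with OVOL1. It encodes carbonic anhydrase IX, an enzyme of the cell surface that hydrates CO2 and is widely used as a marker of hypoxia. CA9 (chr9:35673915-35681154, hg19) was at 0.400 FPKM in PC3-EMT14, 44.9 in PC3-Epi, 3.87 with OVOL1 and 1.24 with OVOL2. The log2 ratios to PC3-EMT14 were 6.81, 3.30 and 1.68. The mesenchymal line thus held nearly none of this message, and the OVOL lines held a small part of the PC3-Epi level. CA9 ranked 81st from the top of 12441 genes in PC3-Epi, 92nd of 12197 with OVOL1 and 292nd of 12307 with OVOL2. The level in PC3-EMT14 is under 1 FPKM and its depth is unknown, so the size of these folds is uncertain, as is the part of reads from the coding gene ARHGEF39, which the CA9 locus overlaps, and the ratios were 5.04, 1.81 and 0.69 with 1 FPKM added to each value.

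CA12, the other membrane-bound carbonic anhydrase among the 39 genes, went with none of this at the level of the gene. It was at 18.9 FPKM in PC3-EMT14, 12.8 in PC3-Epi, 20.5 with OVOL1 and 15.2 with OVOL2. CA9 was 2.07% of the summed FPKM of both genes in PC3-EMT14, 77.9% in PC3-Epi, 15.9% with OVOL1 and 7.57% with OVOL2. CA9 was thus the larger of the pair in PC3-Epi only.

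ADM, which encodes the vasodilator peptide adrenomedullin, was highest with OVOL2. ADM (chr11:10326642-10328923, hg19) was at 6.12 FPKM in PC3-EMT14, 9.00 in PC3-Epi, 11.4 with OVOL1 and 19.2 with OVOL2, with log2 ratios of 0.56, 0.93 and 1.70. The ratio with OVOL2 ranked 287th from the top of 12307 genes, while that in PC3-Epi ranked 1997th of 12441. VEGFA, the main growth factor for blood vessels, was at 15.4 FPKM in PC3-EMT14, 23.9 in PC3-Epi, 19.4 with OVOL1 and 23.3 with OVOL2. Its log2 ratios were 0.63, 0.36 and 0.64, which are all under 2-fold.

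The other hypoxia-responsive genes did not share a direction. NDRG1, a stress-responsive gene and the most abundant of the 9, was at 157 FPKM in PC3-EMT14, 193 in PC3-Epi, 143 with OVOL1 and 202 with OVOL2. BNIP3, a mitochondrial protein that promotes mitophagy, was at 137 FPKM in PC3-EMT14 and lower in the others, at 79.8 in PC3-Epi, 112 with OVOL1 and 84.7 with OVOL2. Its relative BNIP3L had log2 ratios of -0.36, -0.14 and -0.25. DDIT4, an inhibitor of mTORC1 signalling, had log2 ratios of -0.14, 0.42 and 0.52. ANKRD37 was at 4.16 FPKM in PC3-EMT14, 4.02 in PC3-Epi, 3.33 with OVOL1 and 6.28 with OVOL2. Its deposited locus (chr4:186317840-186347139, hg19) also holds the coding gene UFSP2, so reads of both genes may be mixed. Over the 9 genes, 4 were higher in PC3-Epi, 5 with OVOL1 and 6 with OVOL2, with medians of -0.05, 0.15 and 0.52.

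**Figure D2:**
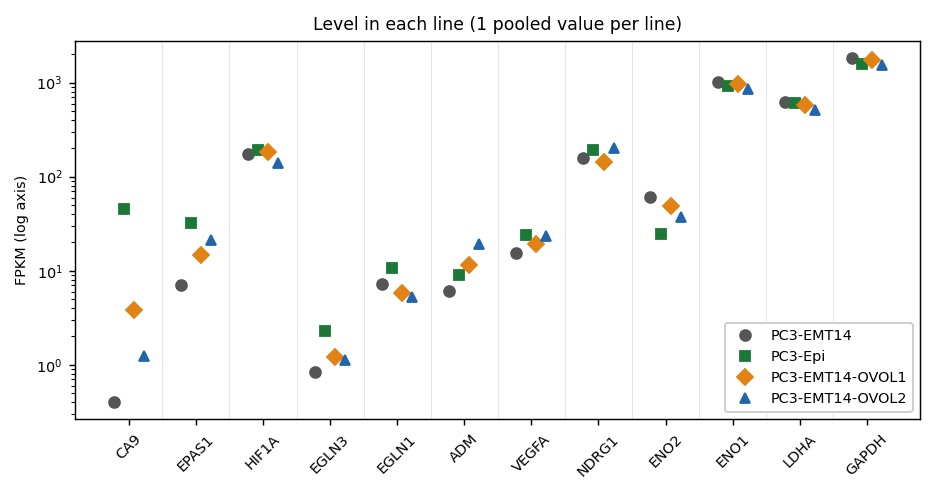
FPKM of 12 of the genes is plotted on a log axis, with 1 symbol per line for the pooled value of PC3-EMT14, PC3-Epi and the lines with OVOL1 and OVOL2. CA9 spans from 0.400 FPKM in PC3-EMT14 to 44.9 in PC3-Epi, while LDHA and GAPDH lie close together across the lines and HIF1A lies between 139 and 193 FPKM.

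The promoters of the 5 genes past 2-fold are shown because HIF recognises a short core sequence there. The 250 bases before the RefSeq start (GRCh38.p14) are given 5′ to 3′ on the strand of the gene, in lower case, with ACGTG or GCGTG on either strand in capitals (CACGT or CACGC when read on the other strand). They are CA9 (chr9:35673678-35673927, plus strand), EPAS1 (chr2:46297157-46297406, plus), ADM (chr11:10304823-10305072, plus), EGLN3 (chr14:33951075-33951324, minus) and ENO2 (chr12:6914330-6914579, plus).
CA9 promoter: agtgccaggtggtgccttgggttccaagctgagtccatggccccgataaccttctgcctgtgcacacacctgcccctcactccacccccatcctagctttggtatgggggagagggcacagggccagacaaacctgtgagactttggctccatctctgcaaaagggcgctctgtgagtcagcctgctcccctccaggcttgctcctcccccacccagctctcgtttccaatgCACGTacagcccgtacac
EPAS1 promoter: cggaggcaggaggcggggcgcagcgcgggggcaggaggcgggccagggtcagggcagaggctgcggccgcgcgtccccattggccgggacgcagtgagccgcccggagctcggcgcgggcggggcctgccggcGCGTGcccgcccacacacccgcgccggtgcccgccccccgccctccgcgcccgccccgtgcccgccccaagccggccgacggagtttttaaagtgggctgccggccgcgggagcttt
ADM promoter: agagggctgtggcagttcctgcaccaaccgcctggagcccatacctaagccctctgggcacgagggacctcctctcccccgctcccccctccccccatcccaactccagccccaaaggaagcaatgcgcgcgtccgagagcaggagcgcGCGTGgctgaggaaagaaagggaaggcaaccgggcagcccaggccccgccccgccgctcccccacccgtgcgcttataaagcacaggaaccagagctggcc
EGLN3 promoter: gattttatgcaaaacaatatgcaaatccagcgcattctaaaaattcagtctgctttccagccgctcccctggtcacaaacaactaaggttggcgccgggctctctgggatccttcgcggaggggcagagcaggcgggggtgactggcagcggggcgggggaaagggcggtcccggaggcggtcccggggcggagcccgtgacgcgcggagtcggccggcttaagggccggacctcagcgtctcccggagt
ENO2 promoter: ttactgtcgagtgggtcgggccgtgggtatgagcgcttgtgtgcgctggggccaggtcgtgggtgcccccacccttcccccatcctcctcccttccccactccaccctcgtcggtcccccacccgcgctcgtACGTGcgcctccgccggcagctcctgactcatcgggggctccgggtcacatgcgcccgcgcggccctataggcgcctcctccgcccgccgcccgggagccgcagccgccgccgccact
The CA9 window holds ACGTG on the opposite strand at positions -18 to -14 from the start, the ENO2 window holds ACGTG at -118 to -114, and the EPAS1 and ADM windows hold GCGTG at -117 to -113 and -101 to -97. The EGLN3 window holds neither. A match is a description of letters and not of a bound site.

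Of the 39 genes, 35 were found in the RefSeq promoter table, all but VEGFA, NDRG1, BNIP3L and LOXL2. ACGTG stood in the window of 18 of the 35 genes (51.4%), against 18.5% of all 35116 promoters and 22.1% of the 12929 promoters of genes that reached 1 FPKM in a table. GCGTG stood in 16 (45.7%), against 32.2% of all promoters and 43.5% of those of expressed genes. Either core stood in 25 (71.4%), against 43.2% and 54.9%. The genes were chosen by name and many are textbook HIF targets, so these shares are no independent evidence of HIF action in these lines. HK2 held ACGTG in 4 matches over both strands, and ALDOC and ANKRD37 in 3. CACGTG reads the same on both strands and so gives 2 overlapping matches. The general OVOL2 consensus that the study searched for was found in none of the 35 windows, in 0.877% of all promoters and in 0.410% of those of expressed genes. The study searched a longer stretch of the ZEB1 promoter, and the site it tied to OVOL2 binding lies after the start. The windows here end at the start, so they cannot show a site placed in that way. CCGTTA, a recognition core of OVOL1, was found in 1 of the 35 (P4HA1), in 2.45% of all promoters and in 3.07% of those of expressed genes.

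The enzymes of glycolysis were abundant in every line and lay slightly lower in PC3-Epi and with OVOL2. In PC3-Epi 12 of the 14 enzymes were below their PC3-EMT14 level at a median log2 ratio of -0.24, and HK2 and GPI were the exceptions (12 of 14 also when centred on the median of all genes, and 14 of 14 when rescaled to the same FPKM sum, which shifts every gene of that table by -0.13). With OVOL2 13 of the 14 were lower, with a median of -0.18 (12 of 14 when centred on the median of all genes, where PFKM changed sign), and PFKL was the exception at 0.13. With OVOL1 9 of the 14 were lower, with a median of -0.02, and the count was the same under both scalings. The 8 enzymes that reached 100 FPKM were lower in PC3-Epi in 8 of 8 cases, where 48.7% of all genes of that level were lower. With OVOL2 they were lower in 8 of 8 cases (49.7% of genes of that level), and with OVOL1 in 7 of 8 (36.2%). Each of the 14 enzymes but ENO2 differed by under 2-fold in every comparison. The summed FPKM of the 14 enzymes was 6278 in PC3-EMT14 and 5333 in PC3-Epi, which is 1.44% and 1.12% of all FPKM. With OVOL1 it was 1.37% and with OVOL2 1.28%.

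GAPDH, which makes NADH in the payoff phase, was the most abundant of the 39 genes (chr12:6643657-6647536, hg19). It was at 1830.3 FPKM in PC3-EMT14, 1596 in PC3-Epi, 1757 with OVOL1 and 1532 with OVOL2, with log2 ratios of -0.20, -0.03 and -0.21. ENO2, the enolase best known from neurons and neuroendocrine cells, differed most. ENO2 (chr12:7023614-7032859, hg19) was at 60.6 FPKM in PC3-EMT14, 24.6 in PC3-Epi, 49.3 with OVOL1 and 37.7 with OVOL2, with log2 ratios of -1.30, -0.27 and -0.64. The ratio in PC3-Epi ranked 751st from the bottom of 12441 genes, and that with OVOL2 729th of 12307. The common enolase ENO1 was at 1019 FPKM in PC3-EMT14 and 924 in PC3-Epi, so ENO2 was 5.62% of the enolase FPKM in the mesenchymal line, 2.59% in PC3-Epi, 4.82% with OVOL1 and 4.18% with OVOL2.

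The minor aldolase ALDOC followed ENO2 in PC3-Epi and with OVOL2 but not with OVOL1, with log2 ratios of -0.78, -0.38 and 0.25. ALDOC was at 25.5 FPKM in PC3-EMT14, 14.9 in PC3-Epi, 29.8 with OVOL1 and 18.9 with OVOL2. The main aldolase ALDOA had log2 ratios of -0.23, -0.04 with OVOL2 and 0.17 with OVOL1. HK1, the hexokinase that commits glucose to the cell in most tissues, was at 122 FPKM in PC3-EMT14 and 83.2 in PC3-Epi, while HK2 was at 24.0 and 25.3. HK2 was therefore 16.4% of the pair in PC3-EMT14 and 23.3% in PC3-Epi. PGK1 and PGAM1 had log2 ratios of -0.31 and -0.26 in PC3-Epi and of -0.30 and -0.27 with OVOL2. PKM2, the symbol in the files for pyruvate kinase M, had log2 ratios of -0.36, -0.22 and -0.21. ENO1, TPI1 and PFKM lay between -0.30 and -0.14 in PC3-Epi, and PFKL at -0.09.

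**Figure D3:**
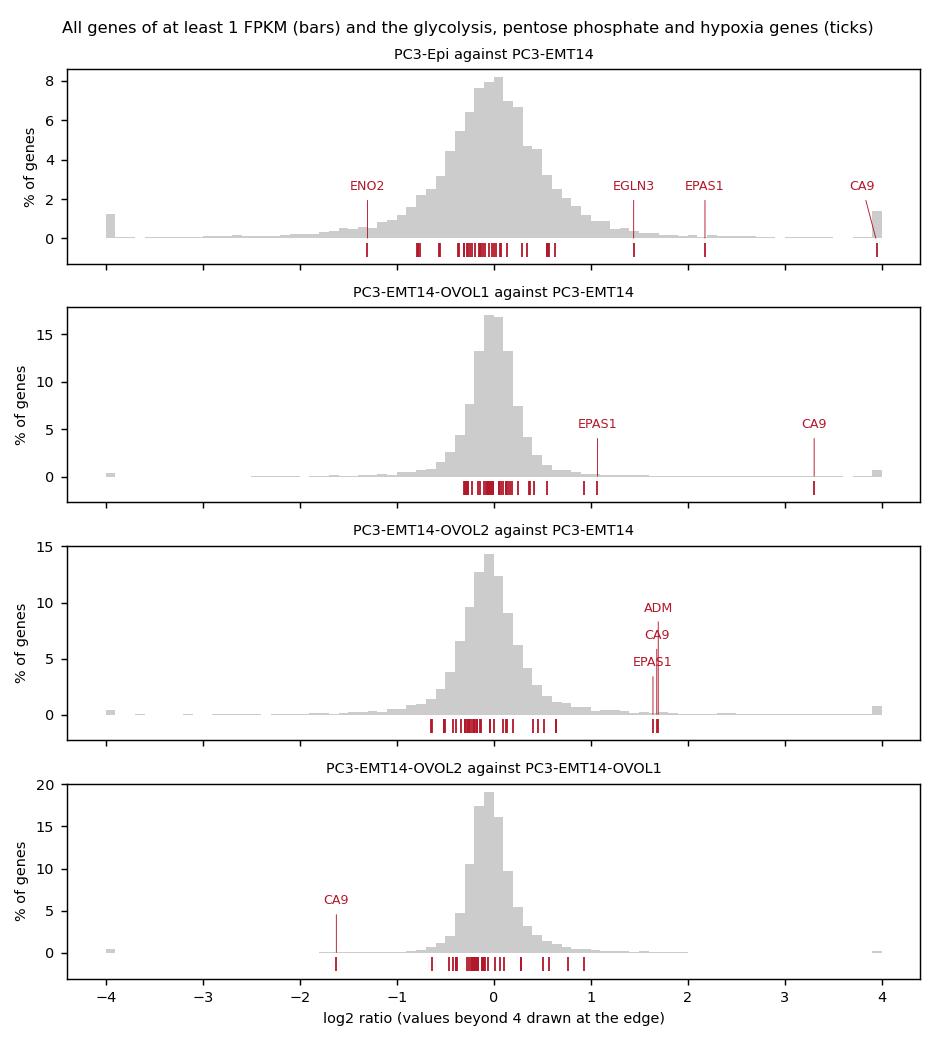
Grey bars give the share of all genes of at least 1 FPKM per 0.1 step of the log2 ratio in each of the 4 comparisons, and red ticks under them the genes described here. Most ticks lie within the bulk of all genes, and genes past 2-fold are named. Some unnamed ticks also lie toward its edges, such as ADM with OVOL1 and ANKRD37, ADM and ALDOC between the OVOL lines. The bulk is wider in PC3-Epi than in the OVOL lines.

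Lactate dehydrogenase was nearly level in PC3-Epi, where LDHA and LDHB each changed sign under another scaling. LDHA was at 618 FPKM in PC3-EMT14, 612 in PC3-Epi, 582 with OVOL1 and 508 with OVOL2, and LDHB was at 350.5, 366, 356 and 295. LDHB was between 36.2% and 37.9% of the pair in all 4 lines. With OVOL2 the log2 ratios of LDHA and LDHB were -0.24 and -0.20.

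Among the regulators of glycolytic flux are PDK1 and PDK3, members of the pyruvate dehydrogenase kinases, which hold pyruvate back from the mitochondria. Both PDK1 and PDK3 were higher in PC3-Epi, by under 2-fold. PDK1 was at 8.63 FPKM in PC3-EMT14, 11.0 in PC3-Epi, 8.14 with OVOL1 and 5.87 with OVOL2, with log2 ratios of 0.35, -0.05 and -0.51. PDK1 thus lay on opposite sides of PC3-EMT14 in PC3-Epi and with OVOL2. PDK3 was at 5.04 FPKM in PC3-EMT14 and 7.37 in PC3-Epi, with a log2 ratio of 0.55. PFKFB4, which makes and breaks down the phosphofructokinase activator fructose 2,6-bisphosphate, was at 15.9 FPKM in PC3-EMT14, 13.1 in PC3-Epi, 12.7 with OVOL1 and 10.8 with OVOL2.

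Of the pentose phosphate enzymes, transketolase (TKT), which links the pathway back to glycolysis, was the most abundant. TKT (chr3:53258724-53290130, hg19) was at 155 FPKM in PC3-EMT14, 231 in PC3-Epi, 196 with OVOL1 and 160.3 with OVOL2, with log2 ratios of 0.57, 0.37 and 0.10. TALDO1, the transaldolase of the same branch, had log2 ratios of -0.24, 0.08 and 0.14. PGD, which makes NADPH in the oxidative branch, was at 80.7 FPKM in both PC3-EMT14 and PC3-Epi, 70.8 with OVOL1 and 62.1 with OVOL2.

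Of the 4 enzymes that modify collagen, 3 reached 1 FPKM, and these 3 lay below their PC3-EMT14 level in PC3-Epi (50.9% of all genes did) by unequal amounts. P4HA1, a catalytic subunit of the prolyl hydroxylase that stabilises collagen, was at 161 FPKM in PC3-EMT14, 93.2 in PC3-Epi, 129 with OVOL1 and 109.8 with OVOL2, with log2 ratios of -0.79, -0.29 and -0.51. The lysyl oxidase LOXL2 had log2 ratios of -0.76, -0.04 and -0.26. P4HA2 had log2 ratios of -0.11, -0.08 and 0.20, so its share of the P4HA pair was 13.1% in PC3-EMT14, 19.5% in PC3-Epi and 19.7% with OVOL2. In PC3-Epi the epithelial marker CDH1 had a log2 ratio of 5.66 and the mesenchymal marker VIM of -2.67 in the same table. Of 10 epithelial markers 9 were higher there, 8 of them by 2-fold or more, and 1 was lower. The 7 mesenchymal markers at 1 FPKM or more were all lower, 3 of them by 2-fold or more. The part of the epithelial state in the values of the collagen enzymes was not tested.

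When the OVOL lines were compared directly, most of the 39 genes lay slightly lower with OVOL2. These lines also differ in construct and in the level of the added factor given above. Factor, construct and level cannot be told apart here. Over all genes the direction depended on the scaling, since the median turned from -0.04 to 0.03 when the tables were rescaled to the same FPKM sum. As deposited, 29 of the 38 genes at 1 FPKM or more were lower, with a median log2 ratio of -0.17, while 57.5% of all genes were lower, with a median of -0.04. Of the glycolysis enzymes 13 of 14 were lower, with PKM2 the exception at 0.02 (12 of 14 after rescaling to the same FPKM sum, where PFKL changed sign), and 7 of the 8 enzymes of 100 FPKM, where 63.3% of all genes of that level were lower. CA9 was at 3.82 FPKM with OVOL1 and 1.24 with OVOL2, a log2 ratio of -1.62 that ranked 83rd from the bottom of 12188 genes. ADM, EPAS1 and ANKRD37 lay on the other side, with log2 ratios of 0.76, 0.57 and 0.93. ALDOC had a log2 ratio of -0.64 and HIF1A of -0.39. CA9 and ADM, both called hypoxia-responsive, were thus ordered oppositely between the OVOL lines.

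The isoform tables were used to ask whether the same gene was made up of different transcripts. Shares of the summed isoform FPKM were compared for genes of at least 5 FPKM in both groups with more than 1 listed isoform, and a shift of 15 percentage points was counted. In PC3-Epi 3 of 17 such genes shifted (CA12, PFKM and PDK3), where 7.59% of all genes under the same rule did. With OVOL2 3 of 16 shifted (CA12, PFKM and P4HA2), where 6.07% of all genes did, and with OVOL1 0 of 16 (2.64%). Between the OVOL lines PFKM shifted, 1 of 16 (3.97%).

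CA12 was the extreme case. Its isoform TCONS_00011747 made up 99.6% of the gene in PC3-EMT14 and was listed at 0 in PC3-Epi, where TCONS_00011746 made up all of it. A shift of at least 95 percentage points was found for 3 of 3453 genes in that comparison. In the OVOL lines the shares lay between, with TCONS_00011746 at 11.2% with OVOL1 and 21.2% with OVOL2, against 0.435% in PC3-EMT14. In FPKM, TCONS_00011746 was at 0.0825 in PC3-EMT14, 12.8 in PC3-Epi, 2.29 with OVOL1 and 3.22 with OVOL2, and TCONS_00011747 was at 18.9, 0, 18.2 and 11.9. The gene total of CA12 hides this exchange. The tables do not say which exons an isoform identifier holds. The annotation of the same assembly (GENCODE, GRCh37) lists 3 coding transcripts of CA12. A coding exon of 33 bases at chr15:63620297-63620329 on the minus strand is held by 1 of them and skipped by the others. Another, of 180 bases at chr15:63638729-63638908, is held by 2 of the 3. The sequence of the exon of 33 bases is shown because it is the shortest piece by which coding CA12 transcripts differ. Whether either exon is the piece exchanged here was not determined.
CA12 exon: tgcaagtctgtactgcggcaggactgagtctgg

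PFKM, the muscle form of phosphofructokinase, also shifted, though its total differed little. TCONS_00007592 made up 14.9% of PFKM in PC3-EMT14, was listed at 0 in PC3-Epi, and made up 9.12% with OVOL1 and 33.8% with OVOL2. PC3-Epi and the OVOL2 line thus lay on opposite sides of PC3-EMT14. The PFKM locus overlaps that of SENP1. TCONS_00027441 of P4HA2 went from 50.9% in PC3-EMT14 to 33.3% with OVOL2 and was at 49.9% in PC3-Epi. TCONS_00036115 of PDK3, a gene of few FPKM, went from 53.1% to 73.1% in PC3-Epi.

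**Figure D4:**
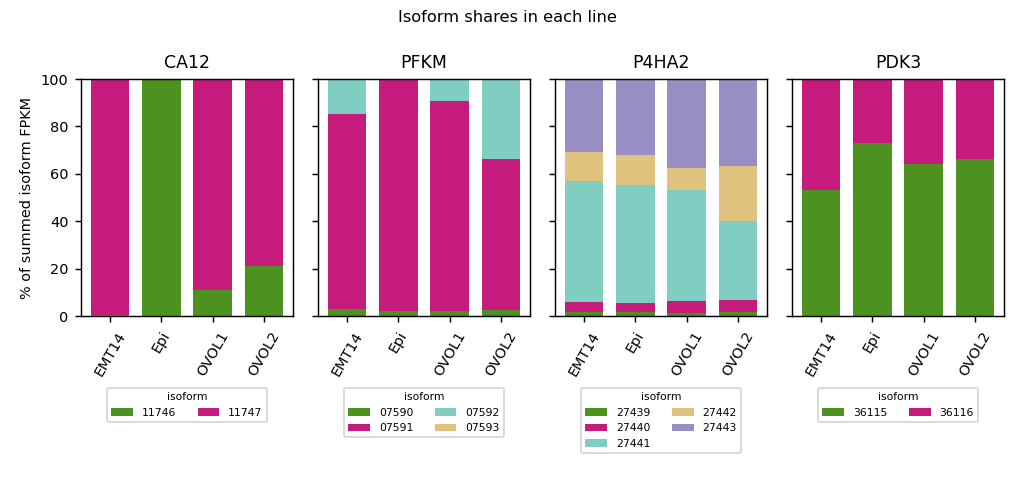
Stacked bars give the share of each isoform (last digits of its identifier) in the summed isoform FPKM of CA12, PFKM, P4HA2 and PDK3 in the 4 lines. CA12 consists almost wholly of 1 isoform in PC3-EMT14 and of the other in PC3-Epi, with the OVOL lines at 11.2% and 21.2% of the PC3-Epi form.

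Genes near each other on a chromosome can differ together when lines differ in copy number, so each gene was set beside its neighbours within 2 Mb. Copy number was not measured here, and its part in the ratios was not tested. A median over such a window need not show a change confined to 1 gene. The neighbours of the genes past 2-fold were close to level. In PC3-Epi the neighbour medians were -0.10 for CA9 (50 genes), 0.01 for EPAS1 (16), 0.07 for EGLN3 (16) and -0.15 for ENO2 (39). With OVOL2 they were -0.07 for CA9, -0.14 for EPAS1 and -0.07 for ADM (26). PDK1 in PC3-Epi had a neighbour median of 0.69 over 18 genes beside its own 0.35. LDHB, at 0.06, had neighbours with a median of -0.58 over 9 genes.

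**Figure D5:**
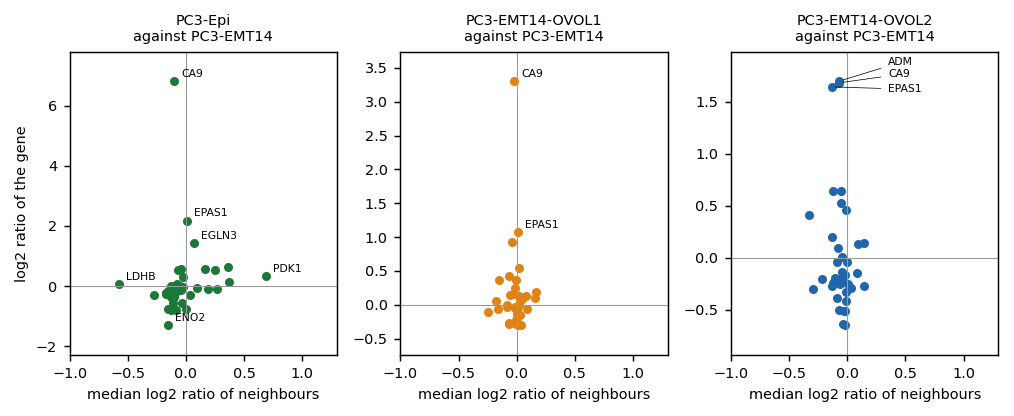
Each point is 1 of the genes of at least 1 FPKM, with the median log2 ratio of its neighbours within 2 Mb on the x axis and its own log2 ratio on the y axis, for the 3 comparisons against PC3-EMT14. The y axes differ in scale. CA9 and EPAS1 lie high above neighbours near 0 in each panel, as ADM does with OVOL2, and PDK1 lies to the right at 0.69 in PC3-Epi.

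Other genes of the same pathways were counted from lists. Of 9 transporters of glucose and lactate, 7 reached 1 FPKM, and SLC2A12 was the 1 gene 2-fold higher in PC3-Epi, at 1.20 FPKM in PC3-EMT14 and 3.00 in PC3-Epi. SLC2A1, the common glucose transporter GLUT1, was named after its values were seen and had log2 ratios of 0.44, 0.44 and 0.62. Of 20 further isozymes of glycolysis and gluconeogenesis, 7 reached 1 FPKM, and LDHD was the 1 gene past 2-fold, at a log2 ratio of -1.44 in PC3-Epi. None of 26 genes of the tricarboxylic acid cycle and pyruvate dehydrogenase, 5 of the serine branch, 7 of the further pentose phosphate enzymes and 12 of the further HIF pathway components that reached 1 FPKM was past 2-fold in any comparison. Of all genes, 7.37% were 2-fold or more higher in PC3-Epi and 8.34% lower, with smaller shares in each other comparison. Of 10 further flux regulators, PDP1, the phosphatase that switches pyruvate dehydrogenase back on, had a log2 ratio of 1.18 in PC3-Epi.

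The further hypoxia-responsive genes lay more often below PC3-EMT14 than above it. Of 30 that reached 1 FPKM, 21 were lower by any amount in PC3-Epi, 19 with OVOL1 and 23 with OVOL2, beside the shares of all genes given above. By 2-fold or more, 3 were higher in PC3-Epi (BHLHE41, STC2 and C7orf68) and 4 lower, beside 7.37% and 8.34% of all genes. The median log2 ratio over the 30 was -0.32. The transcriptional repressor BHLHE40 was at 118 FPKM in PC3-EMT14 and 24.7 in PC3-Epi, while its relative BHLHE41 was at 18.5 and 68.5. IGFBP3 had a log2 ratio of -2.10 in PC3-Epi. The stanniocalcins STC1 and STC2 lay on opposite sides in all 3 lines, with log2 ratios of -1.89, -1.31 and -1.51 for STC1 and of 1.18, 1.00 and 1.00 for STC2. With OVOL2, STC2 lay just under 2-fold, and another gene had the highest ratio of the list at 1.02. With OVOL1 1 gene of the 30 was 2-fold higher and 1 lower (2.43% and 1.54% of all genes). With OVOL2 1 was higher and 3 lower (4.42% and 2.93% of all genes). Among 9 further prolyl hydroxylases and lysyl oxidases, LOXL4 was at 1.08 FPKM in PC3-EMT14, 0.716 in PC3-Epi, 4.59 with OVOL1 and 9.97 with OVOL2. LEPRE1, a collagen prolyl 3-hydroxylase, had log2 ratios of -1.74, -0.36 and -1.06. LOXL3 had a log2 ratio of 3.44 in PC3-Epi, from 0.214 to 2.32 FPKM, and LEPREL2 of -1.05. Of 13 further carbonic anhydrases 2 reached 1 FPKM, and CA5B had log2 ratios of -1.41, -0.41 and -1.05.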

How the data were processed

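RNA-seq libraries of 10 samples in 4 groups were grouped by their labels. Per the labels and the methods of the study, the authors mapped paired-end reads to hg19 using TopHat, then compared groups in pairs using Cuffdiff. The deposited FPKM values come from that step, in which the authors applied upper-quartile normalization and corrections for multiply mapped reads and sequence bias, as 1 value per group and table in 4 gene tables and 4 isoform tables. The submitters' processing notes also name FastQC and Cufflinks. The tables further hold the authors' fold changes, test statistics, p-values and q-values, which were not used. The number of unused columns of per-sample values is 0. Depth and library strandedness are not given in the sources used here, so no interval or detection floor was computed.

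log2 ratios were computed within a table (Python 3.11.15, numpy 2.4.6, pandas 2.3.3, matplotlib 3.10.9), with a minimum of 1 FPKM in the higher group and no pseudocount, and the counting was tested on simulated tables. Genes at 0 in the other group counted as past 2-fold in the background. Tables were normalized separately, so levels of different tables stand side by side only. Positions of genes are the deposited loci with starts counted from 1. Of the 39 loci, 11 hold part of another coding gene, and the values of these may be mixed. They are the loci of GPI, PFKM, ALDOA, ALDOC, TPI1, LDHB, EGLN1, CA9, ANKRD37, LOX and LOXL2.

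The genes and lists were chosen with earlier results of these data known. Named are genes 2-fold or more apart in any table, the most abundant gene of each role, HIF1A, EPAS1 and VEGFA, other genes of the 39 with their ratio, and of each further list up to 6 genes past 2-fold with the greatest ratio, apart from genes not reported here, which still enter the counts. Other minima, folds, pseudocounts, scalings, isoform cuts and windows were tried.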

Additional observations from a re-analysis of the deposited data

How the results depend on the processing

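A count was taken as stable within 1.5 times and a log2 value within 0.1. Of 76 alternatives for counts and medians, 61 were stable and 15 moved. At 1.5-fold, 9 genes passed in PC3-Epi, 7 with OVOL2 and 4 between the OVOL lines. At 4-fold, 2 passed in PC3-Epi, 1 with OVOL1, 0 with OVOL2 and 0 between the OVOL lines. With a minimum of 5 FPKM, where CA9 drops out of the tables of the OVOL lines, 1 passed with OVOL1 and 0 between the OVOL lines. With 1 FPKM added, 1 passed with OVOL1. Rescaling to the same FPKM sum shifted all log2 ratios in PC3-Epi by -0.13 and moved the median of the genes to -0.25. At 25 percentage points 1 gene shifted isoforms in PC3-Epi and 0 with OVOL2, and at 10 points 1 shifted with OVOL1 and 3 between the OVOL lines. These moves follow from the changed cut or scale. Of 60 alternatives for single genes past 2-fold in any comparison, 49 were stable, 11 moved and 0 changed sign, all 11 with 1 FPKM added. These take each such gene in every comparison, also where it was under 2-fold. Windows of 1 and 5 Mb moved no median distance between a gene and its neighbours by 0.1. No paired analysis was possible because the tables hold 1 pooled value per group, and for the same reason no replicate could be left out.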

Other observations

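CA9 and the epithelial marker CDH1 were ordered differently among the lines. CDH1 was lowest in PC3-EMT14 at 1.00 FPKM, then came the OVOL1 line at 16.2, the OVOL2 line at 39.2 and PC3-Epi at 50.6, whereas CA9 was higher with OVOL1 (3.87) than with OVOL2 (1.24). EPAS1 had the order of CDH1, at 7.10, 14.6, 21.5 and 32.1 FPKM. ESRP1, an epithelial regulator of splicing, was at 0.415 FPKM in PC3-EMT14 and 84.6 in PC3-Epi, and at 15.2 and 11.7 in the OVOL1 and OVOL2 lines. Of 9 epithelial markers at 1 FPKM or more, 8 were higher with OVOL2 than with OVOL1, and ESRP1 was the 1 that was lower. The isoform of CA12 that made up the whole gene in PC3-Epi had shares of 0.435% in PC3-EMT14, 11.2% in the OVOL1 line and 21.2% in the OVOL2 line. This is the order of CDH1 among the lines. These genes were set side by side after their values were seen, and no relation between them was tested.

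Genes of the tricarboxylic acid cycle and pyruvate dehydrogenase lay lower with OVOL2 than with OVOL1. The factor, its construct and its level cannot be told apart in this comparison either. Of 26 genes, the OVOL1 line had 23 above their PC3-EMT14 level and the OVOL2 line 7, with median log2 ratios of 0.11 and -0.06. Over all genes the medians were -0.00 and -0.04, and 50.3% and 56.0% lay lower than in PC3-EMT14. Of genes at 100 FPKM or more, 36.2% and 49.7% lay lower. In the direct comparison 2 of 26 were higher with OVOL2, with a median of -0.23 beside -0.04 for all genes. There 57.5% of all genes were lower with OVOL2, and 63.3% of those at 100 FPKM or more. The median of all genes turned to 0.03 when rescaled to the same FPKM sum.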
